A study of Mus musculus with 45 samples.

Results

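The Serpin genes of the mouse were examined for sites of REV-ERBα, the heme-sensing receptor that silences clock genes and metabolic genes, in liver chromatin. Members were all protein-coding genes of the mm10 annotation whose symbol is Serpin followed by a clade letter from a to i and a number, which gave 63 genes among the 21631 that chromosomes 1 to 19 and X carry. A site was assigned to a gene when its summit, the position of highest signal in a peak, lay inside the gene span or within 10 kb of it. The study mapped binding by chromatin immunoprecipitation with sequencing (ChIP-seq) in livers of mice homozygous for a 3HA-tagged endogenous REV-ERBα (genotype REV-ERBa3HA/3HA) that received no AAV vector. Chromatin was precipitated with anti-HA beads from 4 samples at zeitgeber time 10 (ZT10, hour 10 of the light-dark cycle) and 4 at ZT22. The labels give no age or sex for these mice. Each time has 1 peak list, which the authors made from its 4 samples together, so no value has a spread between animals, and no p-value was computed. The other 37 of the 45 samples were not analysed here, and they include the anti-HA precipitation from untagged liver.

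Serpins are proteins that mostly inhibit serine proteases: the protease cuts an exposed loop of the serpin and is trapped as the serpin changes shape. Some members have lost this activity and carry hormones or fold other proteins. The liver secretes many clade a serpins, together with antithrombin, heparin cofactor, antiplasmin and the C1 inhibitor, into plasma, where they limit elastase, clotting, clot breakdown and complement. Clade b serpins lack a classical secretion signal and act mainly inside white blood cells and epithelial cells. In mice the α1-antitrypsin gene, the antichymotrypsin gene and several clade b genes have been duplicated into arrays of close copies.

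At ZT10, 31 of the 63 Serpin genes (49.2%) had a REV-ERBα summit, close to the 54.5% of all protein-coding genes. Strong sites made up a larger part. The strongest summit reached a fold of at least 10 over the local background at 21 Serpin genes (33.3%, against 19.1% of all protein-coding genes) and a fold of at least 20 at 7 (11.1%, against 3.99%). The fold is the authors' value for each peak, and no peak of their ZT10 list has a fold below 4. Among genes with a summit the median of the strongest fold was 11.9 for Serpin genes, with a range of 4.24 to 32.8, and 7.82 for all protein-coding genes. These are counts and medians beside their background, with no test, since neighbouring members share summits. Among the 7 genes with a fold of at least 20, Serpina6 and Serpina16 share a summit, and Serpina11 and Serpina9 share another. The 31 genes drew on 51 distinct summits, 8 of which lay within reach of more than 1 Serpin gene, and 28 distinct summits served as the strongest of a gene. A single summit was found at 15 genes, 2 at 9 genes and 3 or more at 7 genes, with at most 5.

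The signal differed between clades, and the groups by place of action largely follow the clades. Clade a had a summit at 19 of 24 genes (79.2%), with a median strongest fold of 12.4, and clade b at 5 of 28 (17.9%), with a median of 4.83. The contrast depended on the reach: counting only summits inside the gene span left 7 of 24 and 4 of 28 genes. The members of clades c, d, f and g, all of them plasma proteins, had a summit without exception (1, 1, 2 and 1 genes). Clade i had 1 of 2 and clade h none of 1. Grouped by background knowledge, serpins that hepatocytes secrete into plasma had a summit at 17 of 18 genes (94.4%) and a fold of at least 10 at 12. Clade b, the serpins inside cells, had a fold of at least 10 at 2 of 28. Strong sites were not limited to the plasma group, which had a fold of at least 20 at 3 genes. Of the clade a genes outside it, Serpina12, Serpina16, Serpina9, Serpina5, Serpina3a and Serpina1f had a fold of at least 10. These genes do not each have a site of their own. The strongest summit of Serpina16 lay nearer to Serpina6 and that of Serpina9 lay inside Serpina11, both genes of the plasma group. Serpina5 and Serpina3a share a summit, and the summit of Serpina1f lay nearer to Serpina16. Serpina3j had 5.34, and Serpina3b, Serpina3f, Serpina3g and Serpina3i had no summit. Place of action was therefore not separated from clade.

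**Figure D1:**
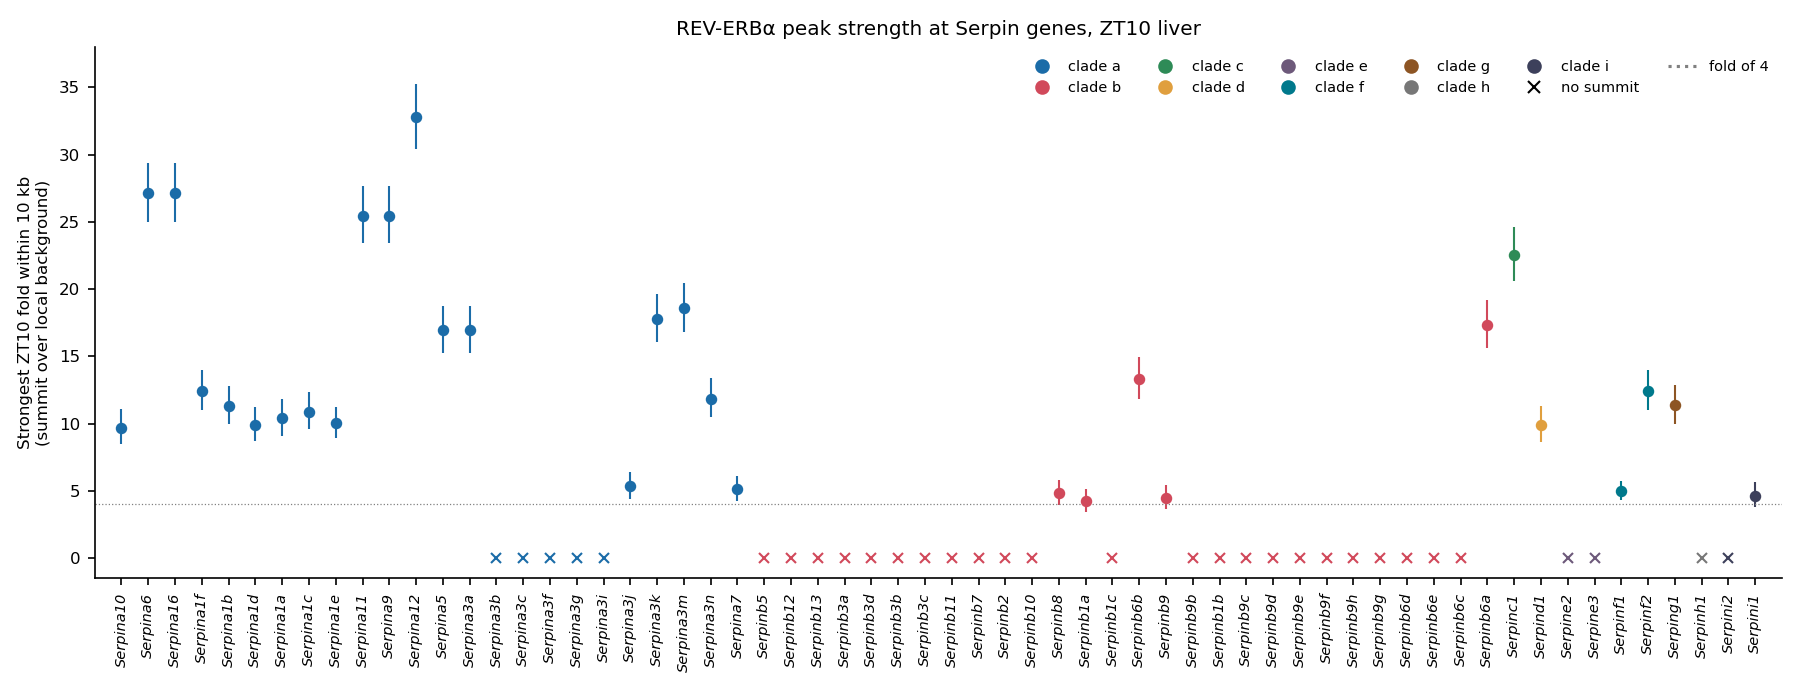
Strongest ZT10 fold at the Serpin genes named in the text (y axis, fold of the summit over local background; x axis, genes by clade and then by position). Bars are 95% counting intervals, crosses placed at 0 mark the 32 genes with no summit in reach, and the dotted line marks a fold of 4. Serpina12 stood highest at 32.8, and 23 of 28 clade b genes had no summit.

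Strength is given with a 95% interval from the number of fragments stacked at the summit, which covers counting error only. Ranked by strongest fold, 23 of 27 pairs of neighbouring distinct sites had overlapping intervals, so the order of most neighbours is not resolved. The intervals separated Serpina12 from Serpina6, Serpinc1 from Serpina3m, Serpina5 from Serpinb6b, and Serpina10 from Serpina3j. These separations leave Serpina12 alone at the top (32.8), then Serpina6 to Serpinc1 (27.1 to 22.6), Serpina3m to Serpina5 (18.6 to 16.96), Serpinb6b to Serpina10 (13.3 to 9.70) and 7 genes from Serpina3j to Serpinb1a (5.34 to 4.24). Sites at the ends of a group can still be apart. The interval of Serpina6 (25.0 to 29.4) did not overlap that of Serpinc1 (20.6 to 24.6), nor that of Serpinb6b (11.9 to 14.9) that of Serpina10 (8.45 to 11.1).

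The clade a cluster on chromosome 12 held most of the binding. It runs for 797.7 kb, from 103616675 at Serpina10 to 104414334 at Serpina3n, and contains 23 Serpina genes and 0 other protein-coding genes. The span held 35 summits, or 4.39 per 100 kb, against 1.1 per 100 kb over all chromosomes, and their median fold was 9.92, against 6.81 for all summits. A summit lay within reach of 18 of its 23 genes, and 15 of these had a fold of at least 10.

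**Figure D2:**
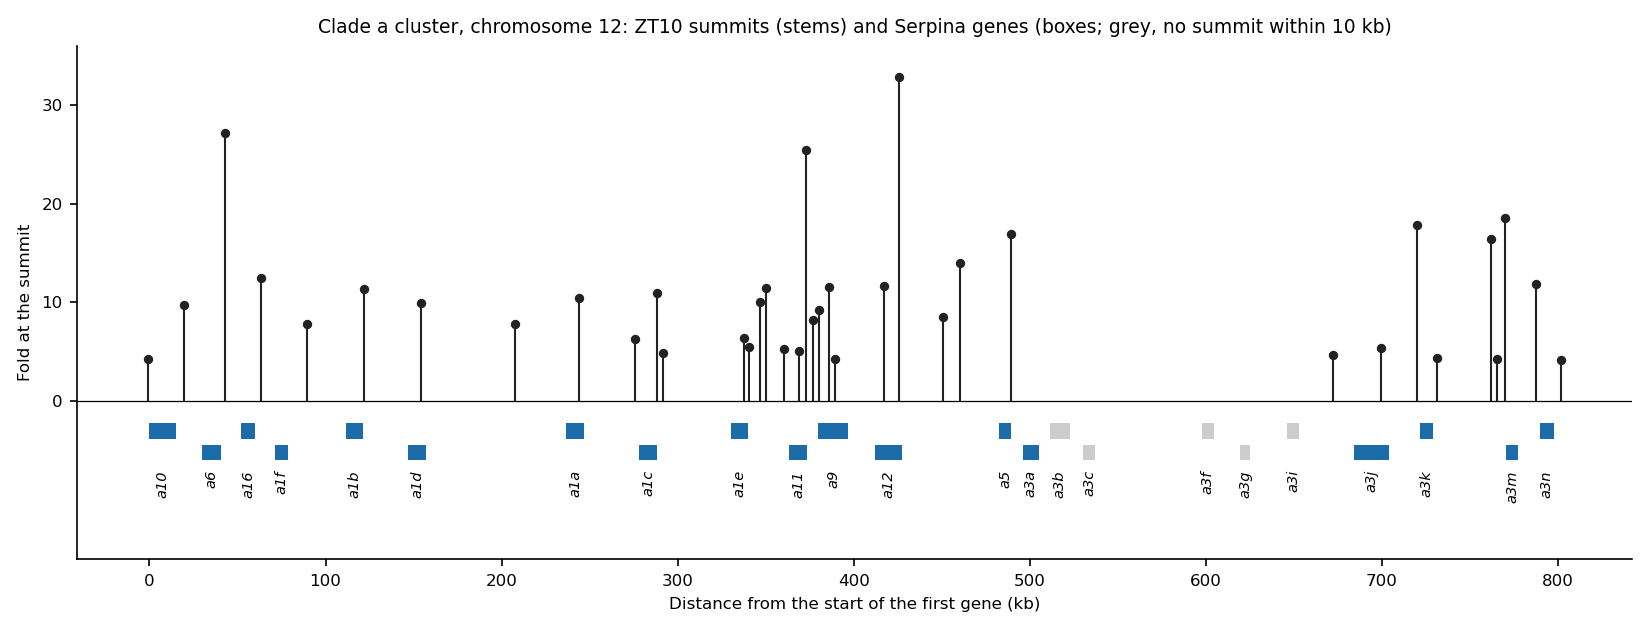
Map of the clade a cluster on chromosome 12. Stems show each ZT10 summit (y axis, fold; x axis, kb from the start of Serpina10) and boxes show genes, named without the prefix Serpin, in blue with a summit within 10 kb and in grey without. Summits lined the cluster except over the Serpina3 copies from Serpina3b to Serpina3i.

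The strongest Serpin site lay in Serpina12, which encodes vaspin, an adipokine and kallikrein inhibitor. Its peak on chromosome 12, from 104039525 to 104044455, had a fold of 32.8 (95% interval 30.4 to 35.3) from 709 fragments, and its summit lay 2245 bp inside the gene from the annotated start. That placed the gene at percentile 99.1 of all protein-coding genes with a summit. A further Serpina12 summit, deeper in the gene, had a fold of 11.6.

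The next site lay beside Serpina6, which encodes the corticosteroid-binding globulin, the plasma carrier of glucocorticoids. Its fold was 27.1 (25.0 to 29.4) from 586 fragments, under a peak of 12263 bp from 103654292 to 103666554. The peak covered 1 end of Serpina6, and the summit lay 2130 bp outside the gene. The same summit was also the strongest for Serpina16, at 9460 bp, and was nearer to Serpina6.

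Serpina11 and Serpina9 shared the third site, with a fold of 25.5 (23.4 to 27.7) from 550 fragments under a peak from 103987573 to 103991423. It lay inside Serpina11, 548 bp from the nearer of its annotated starts, and 7220 bp outside Serpina9, a gene known from germinal centre B cells. Within its own span Serpina9 had summits with folds of 11.6, 9.20 and 4.24. Serpina11 and Serpina9 each had 5 summits in reach, the most of any Serpin gene, and 3 of these were common to both.

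Serpina5, the protein C inhibitor gene, and Serpina3a shared a summit with a fold of 16.96 (15.3 to 18.8) from 365 fragments, 98 bp beyond the finish of Serpina5 and 6488 bp upstream of Serpina3a. At Serpina10, which encodes the protein Z-dependent inhibitor of clotting factor X, the strongest of 2 summits had a fold of 9.70 and lay 4528 bp outside the gene.

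The copies of the gene of α1-antitrypsin, an inhibitor of neutrophil elastase, all had a strongest fold of similar size. The strongest fold was 10.4 (9.09 to 11.8) at Serpina1a, 11.3 (9.95 to 12.8) at Serpina1b and 10.9 (9.57 to 12.4) at Serpina1c. It was 9.92 (8.70 to 11.3) at Serpina1d and 10.1 (8.96 to 11.3) at Serpina1e. The 5 intervals overlapped one another, so these strongest folds did not differ beyond counting error. They come from unlike places about the start, given below, so matching sites are not compared here. Serpina1f, a more distant copy, had a fold of 12.4 from a summit 7856 bp downstream, on the side of Serpina16, which also lay in reach of it.

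Peaks covered the start of each of the 5 close copies, while their summits fell at 2 recurring places. In Serpina1b and Serpina1c the summit lay 286 and 295 bp upstream of the start. In Serpina1a and Serpina1d it lay 2957 and 2947 bp inside the gene, under peaks that reached from -4003 to 5671 bp and from -946 to 4473 bp about the start. Serpina1e had separate peaks at 521 bp upstream (5.48, interval 4.6 to 6.5) and 2431 bp inside (6.40, interval 5.4 to 7.5). Both intervals lay below those of the strongest sites of the other copies. The strongest Serpina1e summit in reach lay 6373 bp upstream, where the local background was 6.0 rather than the lowest value of 4.14. A summit with a fold of 11.4, at 10109 bp upstream of the Serpina1e start, fell just beyond the 10 kb reach. No source used here says how fragments that map to several copies were handled, so the share of each copy in these folds is uncertain. The same holds for the Serpina3 and clade b copies, and for the lack of a listed summit at some of them.

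The promoter sequences of these 5 copies show how alike they are. The 126 bases below, from RefSeq (GRCm38.p6, the same coordinates as mm10), run 5′ to 3′ on the gene's strand and end at GTTAAT, shown in capitals, the core letters of sites for the hepatocyte factor HNF1.
Serpina1a (chr12:103863635-103863760, minus strand): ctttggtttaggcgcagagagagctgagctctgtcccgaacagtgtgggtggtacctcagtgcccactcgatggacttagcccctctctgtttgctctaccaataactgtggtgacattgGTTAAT
Serpina1b (chr12:103738210-103738335, minus strand): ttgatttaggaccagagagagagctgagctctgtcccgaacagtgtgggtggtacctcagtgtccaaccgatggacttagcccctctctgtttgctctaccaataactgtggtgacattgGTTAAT
Serpina1c (chr12:103904972-103905097, minus strand): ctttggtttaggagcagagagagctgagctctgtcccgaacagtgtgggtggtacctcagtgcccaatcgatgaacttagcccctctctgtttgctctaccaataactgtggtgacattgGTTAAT
Serpina1d (chr12:103773644-103773769, minus strand): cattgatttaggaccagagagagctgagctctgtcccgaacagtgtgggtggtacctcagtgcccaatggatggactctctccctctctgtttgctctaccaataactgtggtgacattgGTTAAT
Serpina1e (chr12:103956970-103957095, minus strand): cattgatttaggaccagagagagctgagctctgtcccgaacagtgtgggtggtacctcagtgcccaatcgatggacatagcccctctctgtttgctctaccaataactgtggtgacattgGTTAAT
Between pairs they differed by 3 to 11 base edits and were 91.3% to 97.6% identical. The hexamer began 21, 26, 27 and 16 bp before the annotated start in Serpina1a, Serpina1b, Serpina1c and Serpina1d and 78 bp before it in Serpina1e, where the start is annotated farther on. None of the 5 promoters held AGGTCA, the core hexamer that REV-ERBα and ROR receptors recognise, in the 300-base window from 250 bases before to 50 after the start.

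The antichymotrypsin copies of the Serpina3 family were split along the cluster. Sites were found at 5 of 10 genes. Serpina3m had a fold of 18.6 (16.8 to 20.5) from 400 fragments, 513 bp outside the gene, and further summits of 16.4 and 4.24. Serpina3k, an abundant plasma serpin of mouse liver, had a fold of 17.8 (16.1 to 19.6) from 383 fragments, 1608 bp outside the gene. Serpina3n, an acute phase serpin, had 11.9 (10.5 to 13.4) at 2407 bp upstream of its start, and Serpina3j had 5.34. Serpina3a had the summit shared with Serpina5.

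Serpina3b, Serpina3c, Serpina3f, Serpina3g and Serpina3i had no summit within 10 kb. Between 104106236 and 104289230 no ZT10 summit was listed over 183.0 kb, the longest gap in the cluster, which wholly contained 6 Serpina genes, these 5 and Serpina3a. Gaps at least this long made up 9.55% of all gaps between neighbouring ZT10 summits, whose median was 18.1 kb. Such a share counts gaps by number, and long gaps cover a larger part of the genome than their share. Whether fragments could be placed in this stretch of copies as well as elsewhere was not tested. Serpina3c was the only gene of the hepatocyte plasma group with no site.

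Outside the cluster, clade a has Serpina7 on chromosome X, which encodes the thyroxine-binding globulin. Its strongest fold was 5.11 (4.22 to 6.13), the lowest of clade a, at 102 bp upstream of its start, and a further summit had 4.10.

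The plasma serpins outside clade a come next. Serpinc1 on chromosome 1 encodes antithrombin, the main plasma inhibitor of thrombin. Its fold was 22.6 (20.6 to 24.6) from 487 fragments, under the widest Serpin peak, of 13943 bp from 160976982 to 160990924, which began before the start of the gene and had its summit 8374 bp inside it. Its interval overlapped that of Serpina11.

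Serpinf2, which encodes α2-antiplasmin, had a fold of 12.4 (10.99 to 14.0), 129 bp inside its start, under a peak of 7996 bp. Its neighbour Serpinf1, the gene of pigment epithelium-derived factor, lies next to it on chromosome 11. The strongest summit of Serpinf1, 1027 bp upstream of its start, had a fold of 4.99 from 186 fragments, where the local background was 8.0. Serping1, the C1 inhibitor gene, had 4 summits, the strongest with a fold of 11.4 (10.0 to 12.9) at 2803 bp outside the gene and another inside it with 7.22. Serpind1, the heparin cofactor II gene, lies inside the span of Pi4ka. It had a fold of 8.83 at 71 bp inside its start and of 9.93 (8.67 to 11.3) at 1928 bp beyond its finish, and both summits also lay inside Pi4ka.

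Sequences before the start are shown for the plasma serpins whose start was under a ZT10 peak and held AGGTCA or GTTAAT in the 200 bases before it, apart from the copies above. They run 5′ to 3′ on the gene's strand from 200 bases before the annotated start to the base before it (RefSeq, GRCm38.p6). Capitals mark GTTAAT in Serpina7 and AGGTCA in the others, written as TGACCT where it lies on the other strand.
Serpina7 (chrX:139085237-139085436, minus strand): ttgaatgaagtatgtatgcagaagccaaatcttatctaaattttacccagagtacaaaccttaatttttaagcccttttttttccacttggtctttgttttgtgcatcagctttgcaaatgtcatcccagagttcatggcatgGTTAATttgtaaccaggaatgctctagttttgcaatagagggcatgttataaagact
Serpina11 (chr12:103989958-103990157, minus strand): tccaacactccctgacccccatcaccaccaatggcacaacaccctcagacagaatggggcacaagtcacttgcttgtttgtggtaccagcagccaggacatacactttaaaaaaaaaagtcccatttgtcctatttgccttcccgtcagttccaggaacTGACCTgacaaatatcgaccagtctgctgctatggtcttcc
Serpinf2 (chr11:75439502-75439701, minus strand): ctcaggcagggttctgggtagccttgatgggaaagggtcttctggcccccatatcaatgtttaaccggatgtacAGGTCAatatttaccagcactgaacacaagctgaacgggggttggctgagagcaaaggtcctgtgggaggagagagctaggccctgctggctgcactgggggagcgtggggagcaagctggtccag
The hexamer began 57 bp before the start in Serpina7, 41 bp before it in Serpina11 and 126 bp before it in Serpinf2. Serpina11 and Serpinf2 had folds of 25.5 and 12.4 over these starts and Serpina7 had 5.11.

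Clade b showed few sites, 6 distinct summits with folds of 17.3, 13.3, 10.3, 4.83, 4.47 and 4.24. In the cluster on chromosome 1, from 106861175 to 107608978, 0 summits lay inside the 747.8 kb that hold 12 Serpinb genes. The site of Serpinb8 had a fold of 4.83 and lay 5391 bp beyond its finish. The 11 genes with no summit were Serpinb5, the maspin gene, Serpinb2, Serpinb12, Serpinb13, Serpinb3a, Serpinb3b, Serpinb3c, Serpinb3d, Serpinb11, Serpinb7 and Serpinb10. The gap without a summit ran for 817.7 kb around these genes. By number, not by genome covered, 2.06% of all gaps were at least this long.

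The clade b cluster on chromosome 13, from 32842092 to 34002794, held 16 Serpinb genes and 2 other protein-coding genes, with 5 summits in 1160.7 kb (0.43 per 100 kb). The strongest lay in Serpinb6a, with a fold of 17.3 (15.6 to 19.2) from 373 fragments, but 29149 bp from the nearest Serpinb6a start. It lay inside Nqo2 as well, 573 bp from the start of that gene, which encodes a quinone reductase. A weaker summit of Serpinb6a, with a fold of 10.3 (9.01 to 11.7), lay 15 bp from its start and also inside the span of Ripk1, a kinase gene. Serpinb6b had a fold of 13.3 (11.9 to 14.9) at 4650 bp inside its start. Serpinb1a, a leukocyte elastase inhibitor gene, had 4.24, and Serpinb9, a granzyme B inhibitor gene, had 4.47 at 56 bp upstream of an annotated start.

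The other 12 genes of that cluster had no summit in reach. They were Serpinb1b, Serpinb1c, Serpinb6c, Serpinb6d, Serpinb6e and the copies Serpinb9b, Serpinb9c, Serpinb9d, Serpinb9e, Serpinb9f, Serpinb9g and Serpinb9h. A gap of 960.7 kb without a summit, between Serpinb9 and Serpinb6a, wholly contained 11 of them. Again by number, 1.62% of all gaps were at least this long, and the placement of fragments among these copies was not tested.

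**Figure D3:**
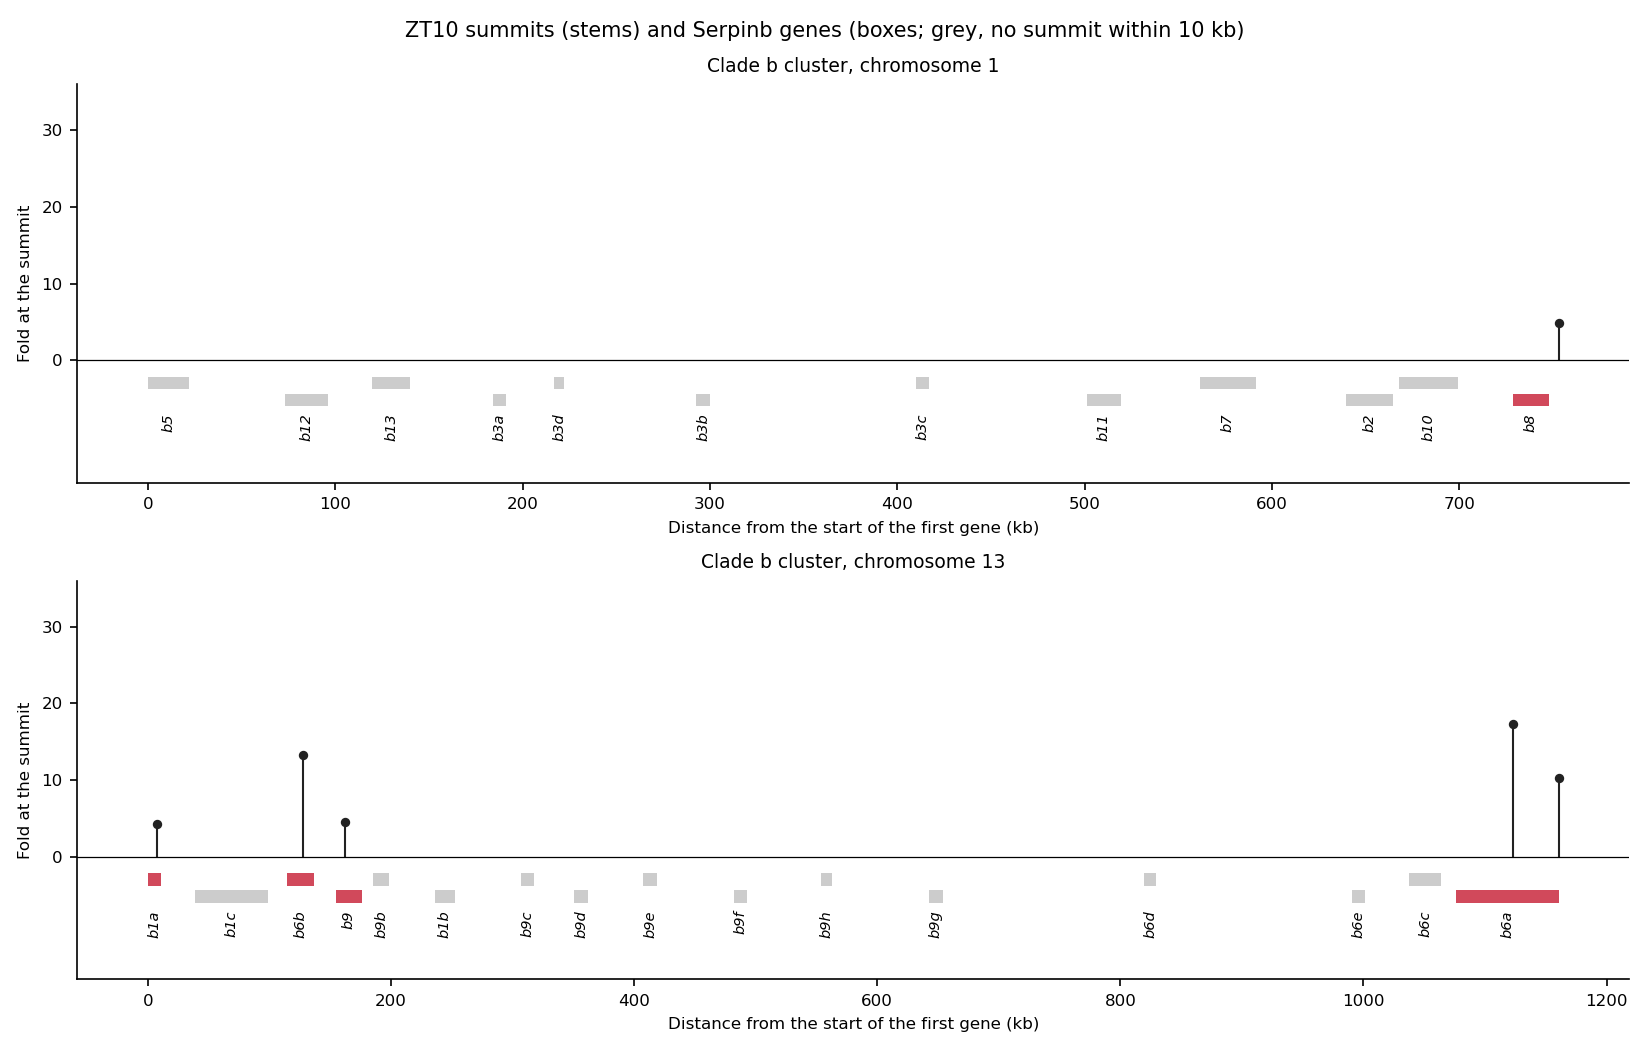
Maps of the clade b clusters on chromosomes 1 and 13, drawn as for clade a and with the same y axis (fold at the summit; x axis, kb from the start of the first gene; red boxes, genes with a summit within 10 kb; grey boxes, none). The chromosome 1 cluster had 1 summit within reach, at 4.83, and the chromosome 13 cluster had 5, up to 17.3.

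Little was found at the remaining serpins named here. Serpini1, the neuroserpin gene, had a fold of 4.65 at 616 bp upstream of its start, a summit that lay 25 bp from the start of Pdcd10. No summit was found at Serpini2, a pancreatic serpin gene, at Serpine2, the protease nexin-1 gene, at Serpine3 or at Serpinh1, which encodes the collagen chaperone HSP47. All cell types of the liver contributed to the chromatin, so a site used in few cells and a weakly bound site cannot be told apart.

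Strongest summits lay inside the gene at 11 of the 31 genes, upstream at 8, downstream at 5 and outside on a side not known at 7, where the tables used here gave no strand. Of the 23 with an annotated start, 7 had the strongest summit within 1 kb of it and 3 within 250 bp, and the median distance was 2947 bp. Of all 51 distinct summits, 20 lay inside a Serpin gene, 5 inside another protein-coding gene, 3 of these in both, and 29 outside every protein-coding gene. A Serpin gene alone was the nearest protein-coding gene for 45 of them, and for 3 more, inside both Serpinb6a or Serpind1 and another gene, it was tied. A ZT10 peak overlapped the 300-base promoter of 16 of 54 Serpin genes with an entry (29.6%), against 39.1% of 17274 protein-coding genes with one. The summit itself fell in that window at 3 of them, Serpina7, Serpinb6a and Serpinb9 (5.56%, against 12.67%).

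**Figure D4:**
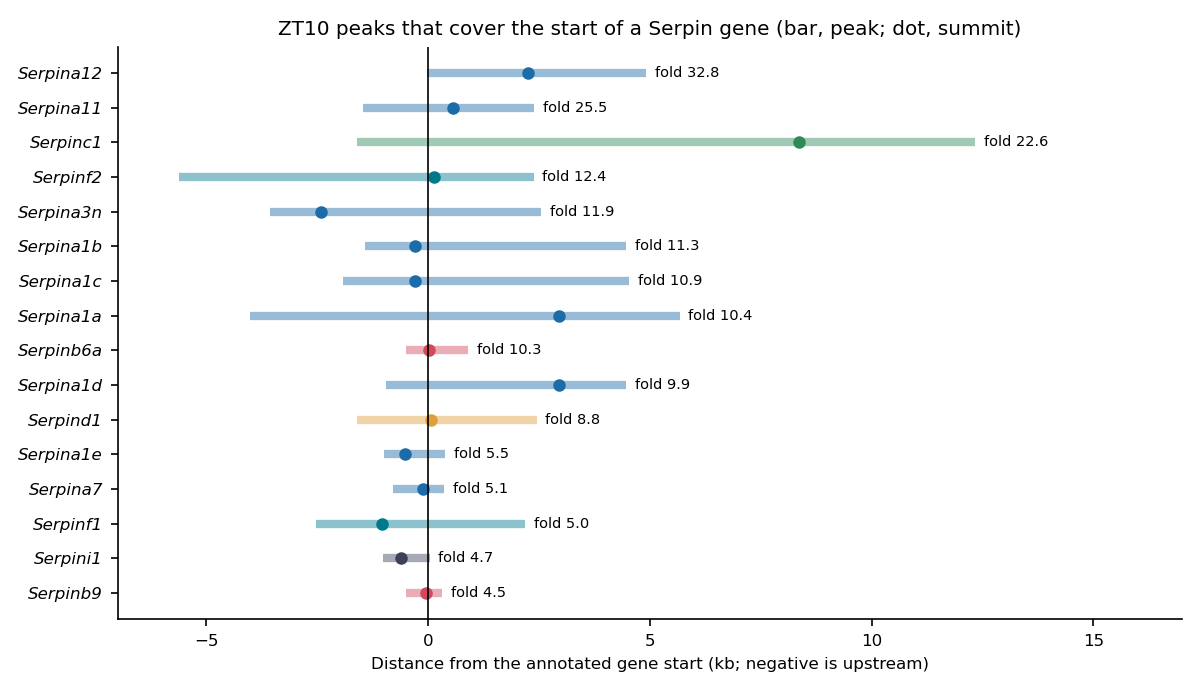
ZT10 peaks that covered an annotated start of a Serpin gene, 16 genes in order of fold (x axis, kb from the start, negative upstream; bars, extent of the peak; dots, summit; colours, clade). Summits sat near the start in genes such as Serpinf2, Serpind1 and Serpinb6a, and up to 8374 bp inside the gene in Serpinc1.

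Serpin peaks were wide. Of the 51, 14 (27.5%) were at least 5 kb wide, against 8.43% of all ZT10 peaks, and their median width was 3158 bp, against 1679 bp. Wide peaks are also strong peaks, so the share was taken again for folds of at least 10, where 12 of 22 Serpin peaks (54.5%) and 26.9% of all peaks were that wide.

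Promoter letters were searched on both strands of the 300-base windows, 63 for 54 Serpin genes and 21045 for all protein-coding genes. AGGTCA was found in 21 Serpin windows (33.3%), against 14.6% of all. Serpin windows under a ZT10 peak held it in 5 of 18 (27.8%), against 12.85% of all windows under a peak, and those under no peak in 16 of 45 (35.6%). The 5 were the windows of Serpind1, Serpinf1 and Serpinf2 and both overlapping windows of Serpina11. The longer TAGGTCA, which contains AGGTCA, was found in 3 windows (4.76%, against 2.35%), and the extended site AANTAGGTCA and the direct repeats AGGTCANAGGTCA and AGGTCANNAGGTCA in 0, against 0.16%, 0.05% and 0.0% of all. GTTAAT was found in 12 Serpin windows (19.05%, against 6.25%), 7 of the 18 under a peak (38.9%, against 4.63% of all windows under a peak) and 5 of the other 45. Those 7 were wholly the 5 close copies Serpina1a to Serpina1e and both overlapping windows of Serpina7. The forkhead letters TGTTTAC were found in 0 (3.03% of all) and the C/EBP letters TTGCGC in 1 (1.59%, against 8.22%). Close copies count separately here, and most summits lay outside these windows.

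At ZT22 no Serpin gene had a summit. The ZT22 list held 36 peaks in all, and 15 of 21631 protein-coding genes (0.0693%) had one of their summits in reach. With so few sites, 0 of 63 genes is close to that background. Chromosomes with at least 1 ZT22 peak carried 45 of the 63 genes, and the nearest such summit lay 6161.8 kb from a Serpin gene, Serpina3n. The lowest fold in the ZT22 list was 4.08, so weaker binding at ZT22 was not detectable from it. The summits in the lists held 83 to 3378 fragments at ZT10 and 82 to 3664 at ZT22, and those at Serpin genes 84 to 709.

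Genes of proteases that serpins inhibit had sites in reach as well. Of 25 target protease genes, 19 had a ZT10 summit (76.0%), with a median strongest fold of 13.1. Plg, the plasminogen gene, had the strongest (24.4), followed by Tmprss6, a membrane protease of iron control (19.3), and F10, the gene of clotting factor X (18.0). Plat and Plau, the plasminogen activator genes, had none, nor did the leukocyte protease genes Ctsg, Gzma and Gzmb or the tissue kallikrein gene Klk1. Elane, the neutrophil elastase gene, and Prtn3 are listed with a fold of 15.4 each and lie close together.

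Plasma protease inhibitors that are not serpins had a summit at 16 of 18 genes (88.9%), with a median strongest fold of 15.4. Itih2 (28.5) and Itih1 (25.9), which encode heavy chains of the inter-α inhibitor, and Pzp (23.6), an α2-macroglobulin relative, were strongest, and A2m and Tfpi had none. These lists, like that of hepatocyte plasma serpins, stand beside 54.5% for all protein-coding genes. All include genes chosen as known liver products, and a comparison with other liver-expressed genes was not made.

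**Figure D5:**
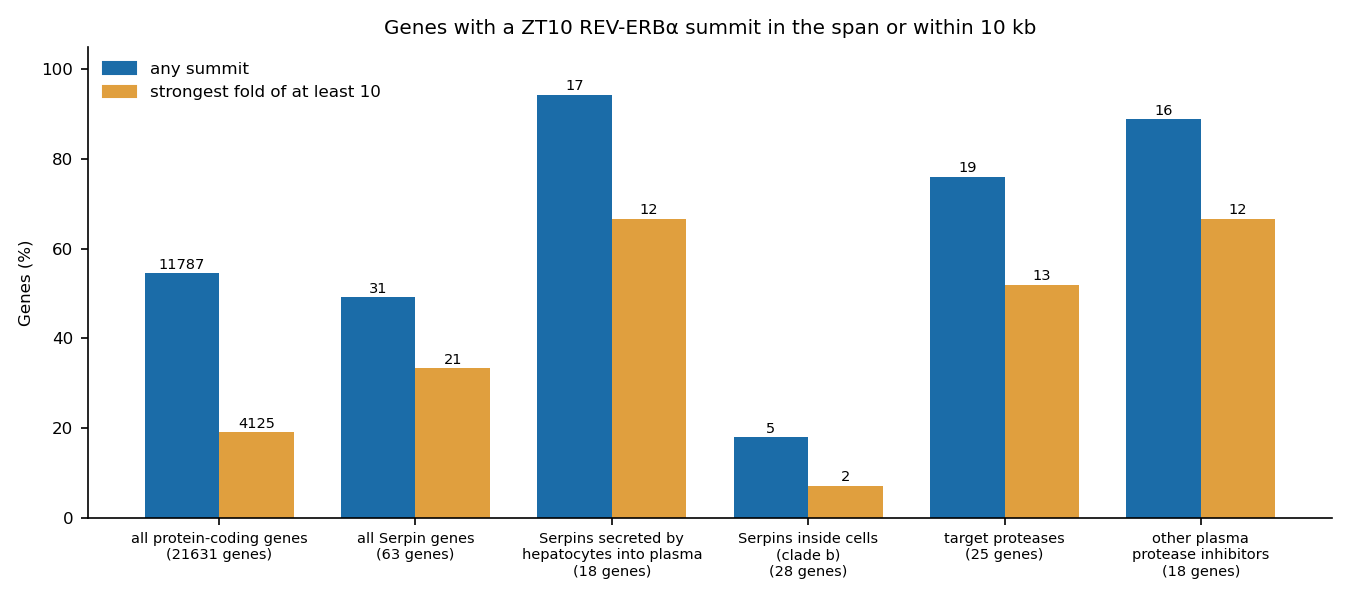
Share of genes (y axis, percent; count above each bar) with any ZT10 summit in reach (blue) and with a strongest fold of at least 10 (orange), for all protein-coding genes, all Serpin genes, the Serpin groups secreted by hepatocytes or inside cells, and the lists of target proteases and other inhibitors. Serpins secreted by hepatocytes stood at 94.4% and clade b at 17.9%, beside 54.5% for all genes.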

How the data were processed

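ChIP-seq peak lists of 3HA-tagged REV-ERBα in mouse liver were used, 1 per time, each pooled by the authors from 4 samples, per the labels. Among the tools in the submitters' processing notes are the peak caller MACS2 2.1.2 and the aligner BWA 0.7.17, with mm10 as the build. No source used here names the control library. The deposited fold is a ratio, signal at the summit over local background. The deposited lists also hold −log10 p and −log10 q per peak, and a deposited score, 10 times the −log10 q without decimals, which was not used.

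Genes came from RefSeq (GRCm38.p6), and starts and promoters were matched by gene ID for 54 of 63 members. Summits were assigned with a reach of 10 kb. Clusters are runs of members with gaps of at most 200 kb. Fragments at a summit were solved from fold and −log10 p with a pseudocount of 1 (87.1% of ZT10 peaks had the lowest background of 4.14, and 100% of these gave whole fragments within 0.1), checked on simulated peaks. Depth per library is unknown from such lists. Intervals are exact Poisson at 95%. Python 3.11.15 with scipy 1.17.1 was used.

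Members and lists were chosen with earlier results of these data known. The rule for named genes was the 12 of highest fold in full, the members of small clades, the ends and strongest gene of each cluster, the 3 highest of each comparison list, and every other member by name. One member is not reported here by name, and the counts over all 63 genes include it. Serpina4, on the hepatocyte list, matched no protein-coding gene. Alternatives changed the reach, the assignment, the peak cut and the cluster gap.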

Additional observations from a re-analysis of the deposited data

How the results depend on the processing

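No paired analysis was possible because each list is a pool of 4 samples, and for the same reason no replicate could be left out. Of 76 alternative values, 19 moved, judged for the median by the counting interval of the gene at it (10.5 to 13.4). With summits inside the gene span only, 15 Serpin genes had a summit (23.8%, against 36.2% of all protein-coding genes), the median fold was 10.4 and distinct summits numbered 20. Clades a, f and i then had 7, 1 and 0 genes, and clade b, which did not move, had 4. A reach of 50 kb gave a median of 16.96 (10.0 for all genes) and 84 distinct summits, and a reach of 2 kb gave 33 summits. Peaks with a fold of at least 6 gave a median of 15.1, 32 summits, 2 genes in clade b, 1 in clade f and 0 in clade i, and a −log10 q of at least 10 left 2 in clade b and 0 in clade i. With the nearest gene only, clade i had 0. Counting shared strongest summits once left 28 sites. Gaps of at most 50 kb split the members into 10 clusters in place of 4. Genes within 20% of the span length of a Serpin gene had a summit at 57%. No reach tried gave a ZT22 summit. Fold intervals of about 100 fragments reach below 4, so the weakest sites are at the limit of the list.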

Other observations

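Pseudogenes of the Serpin family, which were not members, lay in the same clusters. Of 6 annotated, 2 had a ZT10 summit in reach. Serpina4-ps1, in the clade a cluster on chromosome 12 from 104077959 to 104086920, had a fold of 14.0, from a summit that lay within reach of no protein-coding Serpin gene. Serpina3l-ps had 4.37, from a summit also in reach of Serpina3k. Serpina3d-ps, Serpina3e-ps and Serpina3h, which lie in the stretch without summits, and Serpinb1-ps1 had none.

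Of the summits along the clade a cluster, 6 lay more than 10 kb from every protein-coding Serpin gene, with folds of 4.61 to 14.0. The 35 summits of the span include them.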
